A study of Mus musculus with 30 samples.

Results

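The genes described here are 10 members of the interleukin-1 and interleukin-18 system and of the inflammasome that activates it: Il1b, Il18, Il1rn, Il18bp, Il1rap, Il18r1, Il18rap, Nlrp3, Pycard and Casp1. They were taken by symbol from the 54532 genes of the platelet and PBMC count tables, after the Ensembl identifiers had been matched to GENCODE names, and all 10 were found. The RNA came from female C57BL/6 mice aged 6 to 8 weeks at the start, all of them wild type and immune competent. C group received 100 µl of Hank's balanced salt solution (HBSS) without cells, S group received 2000 B16F10 melanoma cells in HBSS (labelled early tumor, with no visible tumor when the mice were examined), and O group received 100000 B16F10 cells in HBSS (labelled large tumor). Blood was taken on day 14, and platelet RNA and PBMC (peripheral blood mononuclear cell) RNA were each sequenced as 5 libraries per group, 30 in all. Every library is a pool of between 3 and 10 mice by the labels, so each SD below is a spread between pools and not between animals. Platelet libraries pooled 10 mice in S group, 5 or 10 in C group and 3 to 5 in O group. PBMC libraries pooled 5 mice in C group, 4 or 5 in S group and 3 to 5 in O group. Pool size thus goes with group, and its part in the spreads was not tested.

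IL-1β, the product of Il1b, and IL-18 are inflammatory cytokines that are made as inactive precursors. The inflammasome is a protein complex in which the sensor NLRP3 and the adaptor ASC (Pycard) bring together and activate caspase-1 (Casp1), which cleaves both precursors. IL-1β signals through IL-1R1 and its shared partner chain (Il1rap), and IL-18 through its receptor chains (Il18r1 and Il18rap), while the receptor antagonist (Il1rn) and the soluble IL-18 binding protein (Il18bp) hold the cytokines in check. In blood, monocytes and neutrophils are the main makers of IL-1β, NK cells and T cells carry the IL-18 receptor, and platelets have been described to hold Il1b RNA and to splice and translate it when activated.

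On GRCm38, Il1b (ENSMUSG00000027398) lies at chr2:129364570-129371139 on the minus strand and Il1rn (ENSMUSG00000026981) at chr2:24336853-24351494 on the plus strand. Il18r1 (ENSMUSG00000026070, chr1:40465552-40500854) and Il18rap (ENSMUSG00000026068, chr1:40515362-40551705) are neighbours on the plus strand. Il18 (ENSMUSG00000039217) lies at chr9:50554827-50581840 and Casp1 (ENSMUSG00000025888) at chr9:5298517-5307265, both on the plus strand. Nlrp3 (ENSMUSG00000032691) lies at chr11:59541568-59566956 and Il1rap (ENSMUSG00000022514) at chr16:26581704-26730117, both on the plus strand. Pycard (ENSMUSG00000030793, chr7:127989708-127993867) and Il18bp (ENSMUSG00000070427, chr7:102014885-102018690) are on the minus strand. The counts are of reads on the exons of each gene. Whether the counting used strand is not given in the sources used here, and 5 members overlap a gene on the other strand: Il1b (Il1bos), Il1rap (Gm20319), Il18 (Tex12 and Bco2), Pycard (Gm45205) and Il18bp (Numa1). For these members, reads from either strand cannot be told apart.

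Il1b, Il18rap and Nlrp3 were, with Il1rap, highest in the PBMC library numbered 4 of every group, as described below. They stand for a ligand, a receptor chain and the sensor, and the 250 bases before their annotated starts (RefSeq, GRCm38, none of these bases in an exon) are shown for comparison. Capitals mark a match to any of 4 motifs searched on both strands: kappa B, PU.1 (GAGGAAGT), AP-1 and the TATA box. The letters searched for AP-1 were TGANTCA, where N stands for any base. Those searched for the TATA box, which binds the general transcription machinery, were TATAAA.
Il1b, chr2:129371140-129371389, minus strand: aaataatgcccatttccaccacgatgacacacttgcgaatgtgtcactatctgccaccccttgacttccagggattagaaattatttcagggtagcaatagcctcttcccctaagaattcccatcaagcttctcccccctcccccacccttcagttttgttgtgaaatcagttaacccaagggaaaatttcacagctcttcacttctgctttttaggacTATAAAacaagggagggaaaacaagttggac
Il18rap, chr1:40515112-40515361, plus strand: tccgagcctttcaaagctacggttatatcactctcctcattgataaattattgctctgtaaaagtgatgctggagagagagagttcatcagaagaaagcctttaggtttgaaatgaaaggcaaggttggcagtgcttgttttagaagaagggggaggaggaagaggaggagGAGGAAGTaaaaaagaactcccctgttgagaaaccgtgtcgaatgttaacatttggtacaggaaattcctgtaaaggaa
Nlrp3, chr11:59542436-59542685, plus strand: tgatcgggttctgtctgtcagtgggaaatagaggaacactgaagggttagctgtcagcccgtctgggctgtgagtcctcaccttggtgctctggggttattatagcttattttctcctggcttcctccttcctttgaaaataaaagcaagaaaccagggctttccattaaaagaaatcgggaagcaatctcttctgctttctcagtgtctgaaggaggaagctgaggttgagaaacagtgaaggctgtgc
The window of Il1b held a TATA box match 31 bases before the start, a motif found in 12.4% of the 32851 windows of this length, and that of Il18rap a PU.1 match 79 bases before the start, found in 2.44% of the windows. The kappa B letters occurred in 1.21% and the AP-1 letters in 6.75% of all windows and in none of these 3, and other forms of these sites were not searched. Nlrp3 has a further annotated start, whose window held no match either. A match is only a run of letters, and no match says nothing of whether a factor acts there.

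Total counts on genes ranged from 12259036 to 25360080 per platelet library and from 13390983 to 15973449 per PBMC library. Levels are given as CPM, the count of a gene relative to the total of its library, with the total scaled by TMM factors over the 15 libraries of a tissue unless another scale is named. The 8 platelet markers checked (among them Pf4 and Itga2b) were detected in all 15 platelet libraries and were all higher there than in PBMCs. The platelet libraries also held RNA of other blood cells: neutrophil markers (11 genes) summed to between 150 and 3756 CPM, and T cell markers (9 genes) to between 143 and 338 CPM. Hemoglobin genes took up to 39.0% of the counts of a platelet library, and 6.52 to 24.5% of those of the O group PBMC libraries against 3.23 to 9.39% in the other PBMC libraries. In such mixtures, fewer cells of a type and less RNA per cell cannot be told apart.

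All 10 members were detected in each of the 30 libraries. Expressed per kilobase of exons on the TMM scale of all 30 libraries, Il1b and Casp1 stood at the top in both tissues. In platelets the median over 15 libraries was 18.5 CPM per kb for Il1b (4.91 to 86.1) and 17.5 for Casp1 (11.9 to 23.6), and Il1b was above Casp1 in only 9 of 15 libraries, so the order of these neighbours does not exceed their spread. The median of Pycard followed at 4.49 and that of Il18rap at 3.06 CPM per kb. Nlrp3, Il18 and Il18r1 lay between 1.62 and 1.91, Il1rn and Il18bp at 0.789 and 0.766, and Il1rap was lowest at 0.230 CPM per kb. Only the step from Casp1 down to Pycard separated neighbours whose ranges did not overlap. The length used joined the exons of all annotated transcripts, 3800 bases for Pycard and 1497 for Casp1. The step between them, and the rank of Pycard, thus depend on the annotated transcripts as well as on the reads. In PBMCs the median was 37.9 CPM per kb for Il1b (11.3 to 489) and 18.7 for Casp1 (15.9 to 22.7). Il18rap, Il18r1 and Nlrp3 then lay between 8.24 and 9.62 CPM per kb and changed places from library to library. Pycard had a median of 4.81, Il18 of 4.40, Il18bp of 1.63, Il1rap of 0.802 and Il1rn of 0.629 CPM per kb. The genes also differed in how steady they were: over the 15 PBMC libraries Casp1 varied 1.43-fold between its lowest and highest CPM, Il18r1 1.60-fold and Il1b 46.2-fold.

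**Figure D1:**
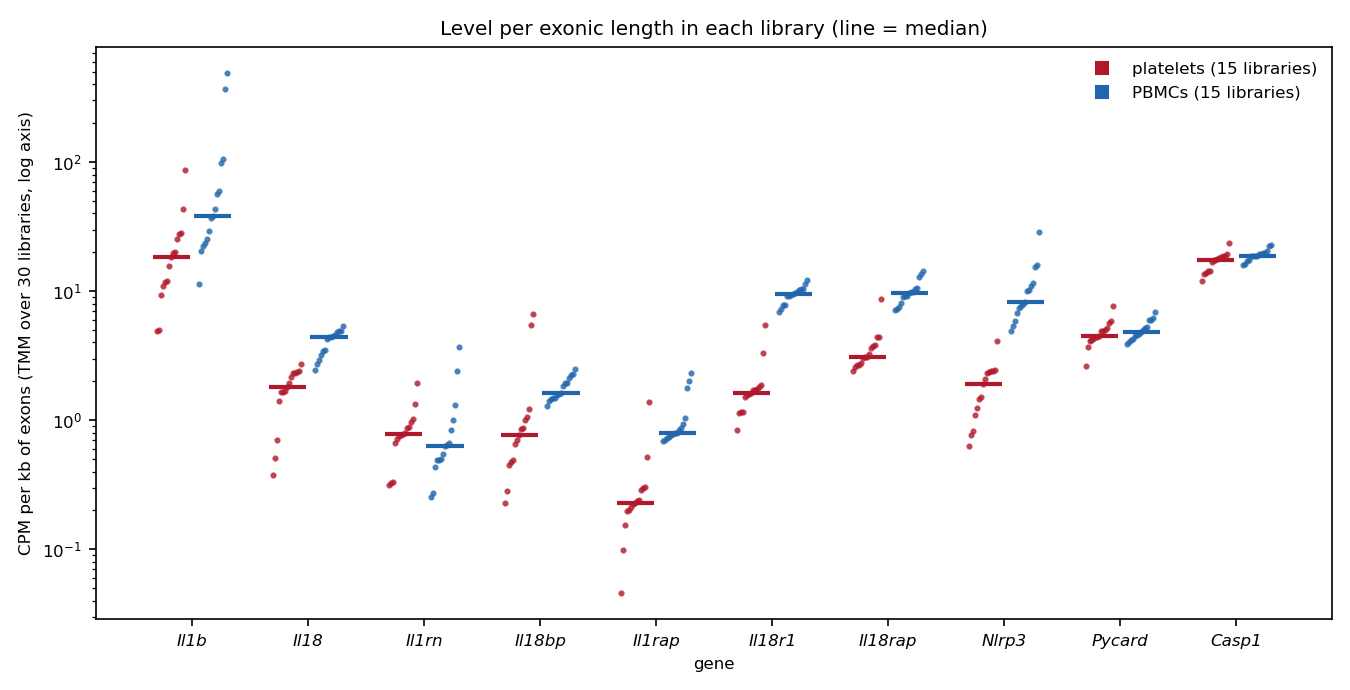
Level of each member per kilobase of exons (vertical axis, log scale, TMM over 30 libraries) in the 15 platelet libraries (red) and the 15 PBMC libraries (blue), each point a library and each line the median. Il1b and Casp1 lie highest in both tissues, and the platelet and PBMC points of Il18r1 and of Nlrp3 do not overlap.

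Platelets were then compared with PBMCs in a fit of the 30 libraries that also held a term for group, to ask which members are a feature of which blood fraction. The PBMCs were prepared from the blood left after platelet-rich plasma had been taken, so libraries of the tissues can share mice, and the 15 libraries of each are not independent of the other tissue in this fit. A gene was called at an unadjusted P under 0.05 in edgeR's quasi-likelihood test, the threshold of the study, and P values adjusted by the Benjamini-Hochberg method are given beside it. Of the 10 members, 7 were lower in platelets and none was higher, in a comparison in which 82.3% of the 14342 genes tested were called and 45.2% were lower in platelets. The same 7 passed an adjusted P under 0.05, as did 81.5% of all genes. The median log2 fold change was -1.33 over the members and -0.12 over all genes. Nlrp3 and Il18r1 differed most. On the scale of 30 libraries Nlrp3 had 7.43 ± 3.65 CPM in platelets and 42.4 ± 24.3 CPM in PBMCs (SD, n = 15 each), a log2 difference of -2.50 (SE 0.22, edgeR adjusted P 1.09e-11). Il18r1 had 9.05 ± 5.44 CPM in platelets and 45.2 ± 6.93 CPM in PBMCs, a log2 difference of -2.36 (SE 0.17, edgeR adjusted P 9.56e-14). For these 2 genes the highest platelet library was below the lowest PBMC library, which held for 26.5% of all genes tested.

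Il1b was 4.02-fold lower in platelets (log2 difference -2.01, SE 0.49), Il1rap 3.58-fold lower, Il18rap 2.79-fold lower and Il18 2.27-fold lower, and the libraries of the tissues overlapped for each. The CPM in this paragraph are on the scale of all 30 libraries too. The decoy Il18bp had 4.27 ± 5.79 CPM in platelets and 5.40 ± 1.11 CPM in PBMCs and was not called (log2 difference -0.59, SE 0.35, P 0.1), but with same-numbered libraries of a group as a replicate block it was (-0.98, P 0.00213). The inflammasome adaptor and the antagonist were not called either. Pycard had 18.1 ± 4.32 CPM in platelets and 19.1 ± 3.37 CPM in PBMCs (log2 difference -0.07, SE 0.10, P 0.509), and Il1rn had 4.61 ± 2.28 CPM and 5.24 ± 5.16 CPM (log2 difference -0.17, SE 0.31, P 0.598). Casp1 was called lower by a small margin (25.3 ± 4.37 CPM against 28.5 ± 2.90 CPM, log2 difference -0.17, SE 0.08, P 0.0406, edgeR adjusted P 0.0498), and this call did not hold under 5 of the 5 other settings of the fit or without any 1 of 12 libraries. Without the fifth O group platelet library the Casp1 difference was 0.00 (P 0.996). Removing the hemoglobin genes from the totals raised the log2 differences of the members and named pathway genes by a median of 0.157, and Casp1 then differed by -0.01 (P 0.90). Markers of the leukocytes that carry these genes were also lower in platelets: 8 of 11 neutrophil, 6 of 9 monocyte and macrophage, 6 of 7 NK cell and 8 of 9 T cell markers were called lower. Their part in the differences of the members was not tested.

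The next question was whether tumor inoculation moved the members in platelets. In S group against C group none of the 10 members was called by edgeR or by DESeq2, in a comparison in which 6.42% of 13268 genes (852) were called. That number was 1542 without C group library 1 and 556 without S group library 1. Voom with sample quality weights called 3, all higher in S group, and 2081 of the 13268 genes. The log2 fold changes of the members ran from -0.24 (Il1b) to 0.47 (Il18r1), and the smallest P was 0.251. For Il1b, the C group platelet libraries had 35.9, 10.8, 56.3, 6.15 and 5.99 CPM and the S group libraries 14.9, 25.3, 20.1, 13.3 and 24.7 CPM. The S group libraries thus lay inside the range of the C group, whose libraries 1 and 3 were high. The difference was -0.24 (SE 0.52, P 0.654), and its sign was not stable. Without the third C group library it was 0.42 (P 0.365), and with all libraries kept it was 0.94 with voom (P 0.0237) and 0.30 with the replicate number as a block (P 0.561).

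In S group against O group, 2 of the 10 platelet members were called, where 13.9% of 13306 genes were called, 7.23% higher and 6.67% lower in S group. Il1b had 115, 29.1, 34.1, 14.0 and 22.9 CPM in the O group libraries. It was lower in S group by 1.12 on the log2 scale (SE 0.47, P 0.0353, edgeR adjusted P 0.332), with groups that overlapped and with the first O group library far above the others. That library also had 39.0% of its counts on hemoglobin genes, the highest erythroid marker sum (744564 CPM, 45239 to 351912 in the other platelet libraries), the lowest TMM factor of the platelet libraries (0.554) and the fewest genes detected of all 30 (16681). The part of these in its levels was not tested. Without that library the difference was -0.40 (P 0.154), and the call was also lost without S group library 1, 3, 4 or 5, where the difference stayed between -1.22 and -1.01. With all libraries kept it was lost with voom (-0.65, P 0.0507), with the replicate block (-0.73, P 0.107) and with all 3 groups in one fit (-1.12, P 0.0908). Il18r1, which encodes the ligand-binding chain of the IL-18 receptor, had 5.52, 4.89, 6.09, 5.38 and 18.4 CPM in S group and 6.05, 3.38, 5.08, 2.47 and 3.33 CPM in O group. It was 1.99-fold higher in S group (log2 fold change 0.99, SE 0.40, P 0.0286, edgeR adjusted P 0.321), but the fifth S group library alone was high. Without it the log2 fold change was 0.45 (P 0.116), and the call was also lost without O group library 2, 4 or 5 (0.85 to 0.95). In the same comparison 6 of 10 neutrophil markers tested were called lower in S group (median log2 fold change -2.05), and 7 of 9 T cell, 3 of 7 NK cell, 5 of 7 B cell and 3 of 8 monocyte and macrophage markers were called higher (medians 0.84, 0.72, 1.06 and 0.57). The fifth S group library also had the highest summed T cell markers (338 CPM, against 244 to 307 in the other S group libraries) and B cell markers (1260 CPM, against 613 to 880). The part of these cells in the levels of Il1b and Il18r1 was not tested.

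In O group against C group no platelet member was called by edgeR and 1 by DESeq2, where edgeR called 4.79% of 13270 genes (635) and DESeq2 776. With the replicate number as a block, whose pairing was not established there, edgeR called 3 members (Il1b, Il1rn and Nlrp3) and 863 genes. Voom called 4 members and 883 genes. Without the block the edgeR log2 fold change of Il1b was 0.88 (SE 0.70, P 0.233). S group against C group, S group against O group and O group against C group share their libraries, so these values are not independent of each other. In the edgeR fit without the block, the members closest to the threshold were Il18rap and Il18bp. Il18rap, the signalling chain of the IL-18 receptor, had 40.6, 18.1, 16.9, 12.6 and 14.9 CPM in O group and 13.7, 11.02, 17.3, 10.5 and 13.2 CPM in C group (log2 fold change 0.62, SE 0.30, P 0.0589). Only the first O group library was well above the range of the C group, and without it the log2 fold change was 0.24 (0.24 to 0.75 with 1 library left out, called in 3 of 10 fits). Il18bp, the decoy for IL-18, had 14.0 and 10.1 CPM in O group libraries 1 and 4 (104 and 200 counts) and 0.448 to 0.901 CPM in the other 3 O group libraries. It had 0.583 to 2.13 CPM in C group and 0.910 to 2.60 CPM in S group, so that the O group held both the highest and the lowest platelet levels of this gene. Its log2 fold change was 1.76 in O group against C group (SE 0.85, P 0.0606) and -1.61 in S group against O group (SE 0.83, P 0.0771). Without these 2 libraries both differences changed sign, to -0.96 (P 0.0713) and 1.09 (P 0.0291). Numa1, which overlaps Il18bp on the other strand, had 62.5 and 94.5 CPM in those 2 libraries, within the 62.5 to 111 CPM of all 15, and each of the libraries was a pool of 3 mice. Among the 15 platelet libraries the summed platelet markers were highest in the fourth O group library (47826 CPM).

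Nlrp3 was low in 3 of the 5 C group platelet libraries. It had 6.46, 2.05, 6.51, 1.65 and 2.00 CPM in C group, 4.09, 3.35, 5.21, 2.85 and 6.56 CPM in S group and 11.6, 5.85, 6.42, 3.58 and 5.16 CPM in O group. The log2 fold change was 0.77 in O group against C group (SE 0.44, P 0.108), 0.23 in S group against C group (SE 0.40, P 0.576) and -0.56 in S group against O group (SE 0.32, P 0.104). The difference of O group and C group was called with the replicate block (0.93, P 0.00603) and with voom (1.22, P 0.00213), although pairing by number was not established there. Il1rn and Il1rap were highest in the first O group library (7.52 and 10.9 CPM) and at most 3.66 and 1.58 CPM in the other 4. Il18, Casp1 and Pycard moved least, with log2 fold changes between -0.35 and 0.30 in the 3 platelet comparisons. For the cytokine IL-18 itself the platelet levels rested on 2 to 38 counts per library. Its standard errors were 0.42 to 0.48 on the log2 scale, so that a change of that size was not detectable here. The parts of low counts and of the spread between pools in these errors were not tested. No member passed an adjusted P under 0.05 in a platelet comparison under any setting run. Of all genes, 0.00754% (1 gene) passed it in S group against C group and none in the other 2 comparisons by edgeR with Benjamini-Hochberg adjustment, while DESeq2 passed 9, 275 (S group against O group) and 5 (O group against C group).

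**Figure D2:**
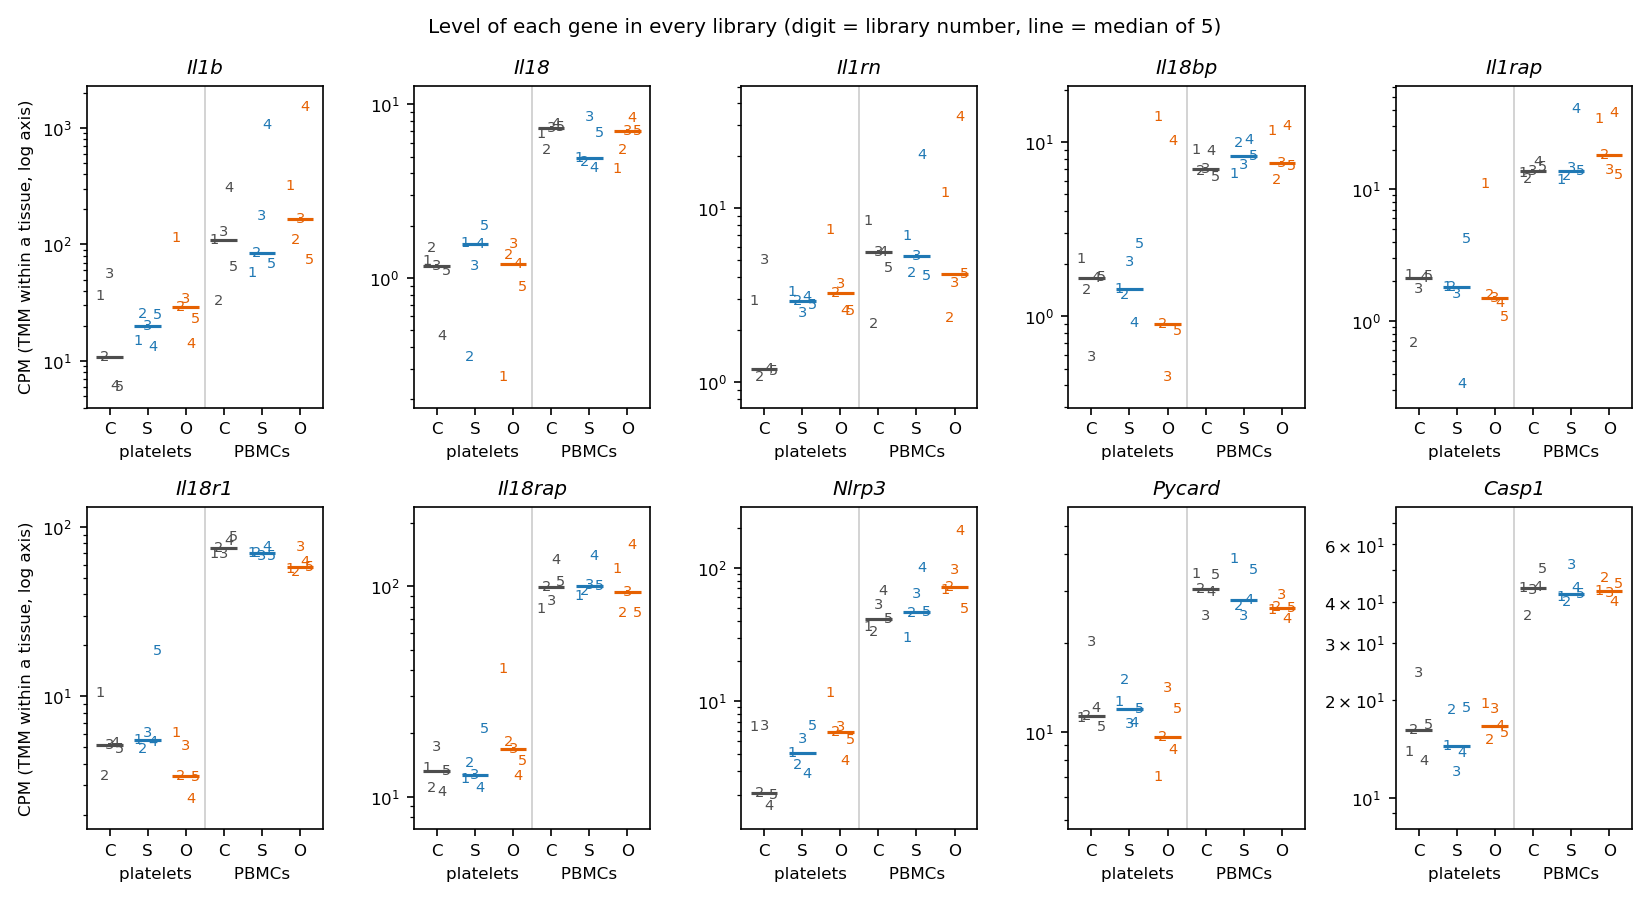
CPM of each member in every library (vertical axis, log scale, TMM within a tissue), by group in platelets (left of the grey line) and PBMCs (right), with the library number as the symbol and a line at the median of 5. The first O group platelet library (Il1b 115 CPM) and the PBMC libraries numbered 4 (Il1b 306, 1062 and 1521 CPM) stand above the others for several genes.

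In PBMCs, S group against C group again gave 0 of 10 members called by edgeR and by DESeq2, where edgeR called 2.64% of 15139 genes. In S group against O group edgeR called none and DESeq2 1, where edgeR called 12.2% of 14686 genes. In O group against C group 3 of the 10 members were called, where 11.9% of 14726 genes were called, 7.56% higher and 4.39% lower in O group. Nlrp3, the inflammasome sensor, had 35.9, 33.0, 52.2, 67.2 and 41.0 CPM in C group, 29.5, 45.4, 63.7, 99.2 and 47.0 CPM in S group and 68.4, 72.2, 95.9, 188 and 49.3 CPM in O group. Of the 5 O group libraries, 4 were above every C group library. Nlrp3 was 2.06-fold higher in O group than in C group (log2 fold change 1.05, SE 0.34, P 0.0111, edgeR adjusted P 0.343). The difference kept an unadjusted P under 0.05 without any 1 of the 10 libraries (0.64 to 1.22) and was 0.82 (P 0.0043) without both libraries numbered 4. S group was called different from neither, at 0.33 above C group (SE 0.29, P 0.276) and 0.73 below O group (SE 0.39, P 0.0865) on the log2 scale. Single libraries moved both differences. S group was 0.03 above C group without S group library 4, and the difference of S group from O group was -0.33 without O group library 4 and -1.02 without S group library 4, and it was called in 2 of the 10 fits with 1 library left out. No label pairs the libraries by number. Deviations of same-numbered PBMC libraries from their group means correlated at 0.268 to 0.561 for S group and C group, with 5 of 5 best matched to their own number. For S group and O group they correlated at 0.111 to 0.392, with 4 of 5 best matched. With the number as a replicate block edgeR called Nlrp3 in both comparisons: 0.27 higher in S group than in C group (P 0.0427) and 0.69 lower in S group than in O group (P 0.00267).

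Il1rap, the shared receptor partner chain, had 13.2, 11.9, 13.8, 16.2 and 14.7 CPM in C group PBMCs and 34.0, 18.2, 13.9, 37.6 and 12.9 CPM in O group. It was 1.66-fold higher in O group (log2 fold change 0.73, SE 0.29, P 0.0299, edgeR adjusted P 0.381), with libraries 1 and 4 the highest. O group library 1 also had the highest erythroid marker sum of the PBMC libraries (494503 CPM) and a TMM factor of 0.551. The call was lost without O group library 1 or 4 (0.56 and 0.49) and without C group library 1, 2 or 3 (0.67 to 0.73). Il18r1 moved the other way, with 69.0, 75.3, 69.4, 82.3 and 87.0 CPM in C group and 56.3, 54.4, 76.6, 61.9 and 57.8 CPM in O group. All O group libraries but the third were below every C group library. The log2 fold change was -0.32 (SE 0.11, P 0.0125, edgeR adjusted P 0.346), and it was -0.29 (P 0.0534) without both libraries numbered 4. In the same comparison all 9 T cell markers and 3 of 7 NK cell markers were called lower in O group, with median log2 fold changes of -0.36 and -0.37, and the T cell markers summed to 940 to 1173 CPM in O group against 1159 to 1533 CPM in C group. All 7 erythroid markers were called higher in O group (median log2 fold change 2.82), and the 8 platelet markers had a median of 0.65 with none called. The part of these cells in the levels of Il18r1, Il1rap and Nlrp3 was not tested. The partner chain of Il18r1, Il18rap, was not called (77.6 to 133 CPM in C group, 74.3 to 158 CPM in O group, log2 fold change 0.06, SE 0.22, P 0.796).

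**Figure D3:**
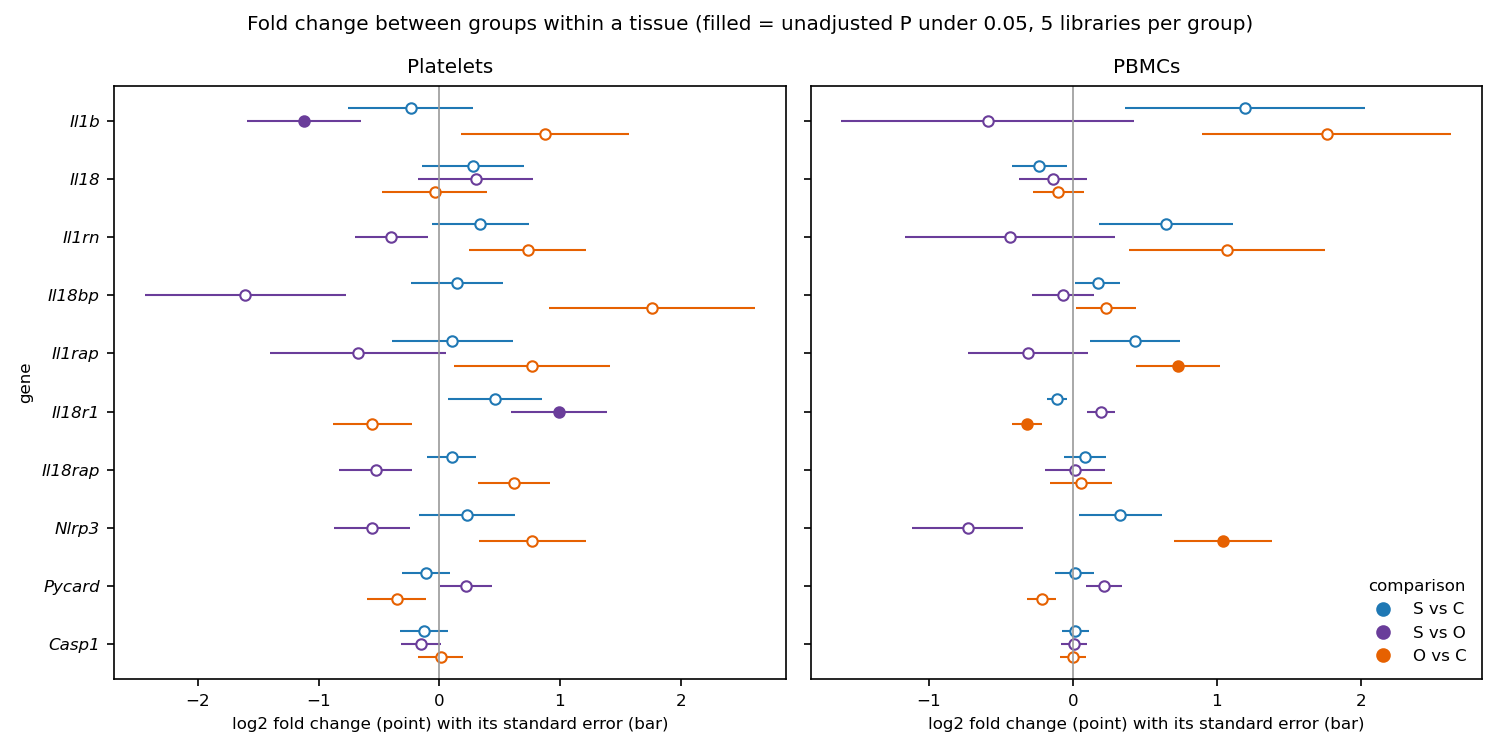
Log2 fold change of each member (horizontal axis) with its standard error (bar) in the 3 comparisons within platelets (left) and within PBMCs (right), 5 libraries per group. Filled points have an unadjusted P under 0.05: Il1b and Il18r1 in platelets of S group against O group, and Il1rap, Il18r1 and Nlrp3 in PBMCs of O group against C group.

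Il1b had the largest fold change of the members against C group in PBMCs, and the largest spread between libraries. It had 110, 32.9, 128, 306 and 63.8 CPM in C group, 57.3, 85.0, 175, 1062 and 67.8 CPM in S group and 319, 109, 165, 1521 and 74.1 CPM in O group. In each group the fourth library was the highest, and the mean was above each of the other 4 (128 ± 106, 289 ± 435 and 438 ± 613 CPM, SD, n = 5). The log2 fold change was 1.76 in O group against C group (SE 0.87, P 0.0676) and 1.20 in S group against C group (SE 0.83, P 0.177). Il1b was higher in O group in each of the 5 pairs of libraries with the same number, and with the number as a replicate block the O group difference was 1.24 (P 0.00749). Pairing by number was not established for these groups: the deviations correlated at 0.0398 to 0.425, with 1 of 5 best matched to its own number. Without O group library 4 alone the O group difference was 0.38, the lowest value with 1 library left out (highest 2.37, called in 3 of 10 fits). Without both libraries numbered 4 the difference was 0.99 (P 0.094) for O group and 0.20 (P 0.652) for S group. Without the fourth S group library alone, S group was lower than C group by 0.40 (P 0.482). In S group against O group the difference was -0.59 (SE 1.02, P 0.573), and it was 0.79 (P 0.40) without the fourth O group library and -2.17 (P 0.0355) without the fourth S group library. The antagonist Il1rn was likewise high in S group and O group libraries 4 (20.2 and 33.6 CPM), though not in the fourth C group library (5.56 CPM). Counts of Il1b were 8.33 to 55.1 times those of Il1rn in the PBMC libraries and 4.35 to 15.2 times in the platelet libraries.

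The remaining PBMC members stayed close to their control levels. Casp1 had 43.8 ± 5.04, 43.9 ± 4.73 and 43.7 ± 2.79 CPM in C, S and O group (SD, n = 5), with log2 fold changes between 0.00 and 0.02 and standard errors of 0.09 to 0.10. Pycard had 30.7 ± 4.00, 30.7 ± 5.95 and 26.4 ± 1.81 CPM and was nearest to the threshold in O group against C group (log2 fold change -0.22, SE 0.10, P 0.0553). Il18 had 6.91 ± 0.88, 5.84 ± 1.78 and 6.41 ± 1.58 CPM, and Il18bp 7.59 ± 1.23, 8.48 ± 1.58 and 8.97 ± 2.82 CPM, with P between 0.248 and 0.752 for these 2 genes. No member passed an adjusted P under 0.05 in a PBMC comparison under any setting run. Of all genes, 0.033% (5 genes) passed it in S group against C group and none in the other 2 comparisons by edgeR with Benjamini-Hochberg adjustment, while DESeq2 passed 25, 216 (S group against O group) and 239 (O group against C group).

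A group of members stood out in PBMC library 4. Il1b, Il1rap, Il18rap and Nlrp3 were each highest in the library numbered 4 in all 3 groups, whereas 366 of 15398 genes tested in PBMCs (2.38%) were. This pattern was looked for after the values had been seen. The ratio of that library to the median of the other 4 was 3.53, 13.9 and 11.1 in C, S and O group for Il1b, 1.75, 2.15 and 2.68 for Nlrp3, and between 1.20 and 3.07 for Il1rap and Il18rap. The labels tie nothing but the number to these libraries. Their summed neutrophil markers were 2363, 3723 and 5702 CPM, against 409 to 1328, 429 to 979 and 523 to 7326 CPM in the other libraries of C, S and O group. Their summed monocyte and macrophage markers were 5162, 2935 and 5115 CPM, within the range of C group (4742 to 6331 CPM) and the lowest in S group (the others 4637 to 5673 CPM) and O group (the others 5683 to 6880 CPM). Lyz2 was the largest part of that sum, with a PBMC median of 3959 CPM against 584 CPM for Csf1r, the next marker. The first O group PBMC library had the highest neutrophil sum, with 319 CPM of Il1b. In platelets the first O group library had the highest neutrophil sum, 3756 CPM against 150 to 750 CPM in the other 14, and the highest level of Il1b, Il1rn, Il1rap, Il18rap and Nlrp3.

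Across the 15 platelet libraries the log2 levels of Il1b and the summed neutrophil markers had a Pearson correlation of 0.918, and those of Il1rn, Nlrp3 and Il18rap had 0.855, 0.831 and 0.902. Across the 15 PBMC libraries Il1b, Il1rap and Il1rn had correlations of 0.849, 0.874 and 0.835 with the same markers, Nlrp3 0.617, and Il18r1 0.775 with the NK cell markers. Casp1 was tied to the neutrophil markers less closely, at 0.537 in platelets and -0.0452 in PBMCs. These correlations are descriptions over libraries that share their groups, pools and scaling. In platelets of O group against C group, 4 of 11 neutrophil markers were called higher (10 tested, median log2 fold change 1.97), and in PBMCs 1 of 11 (median 1.41). Of these markers Ly6g and Camp were each at 0 in 1 platelet library, and none was at 0 in any other. The part of neutrophil RNA in the levels of the members was not tested.

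**Figure D4:**
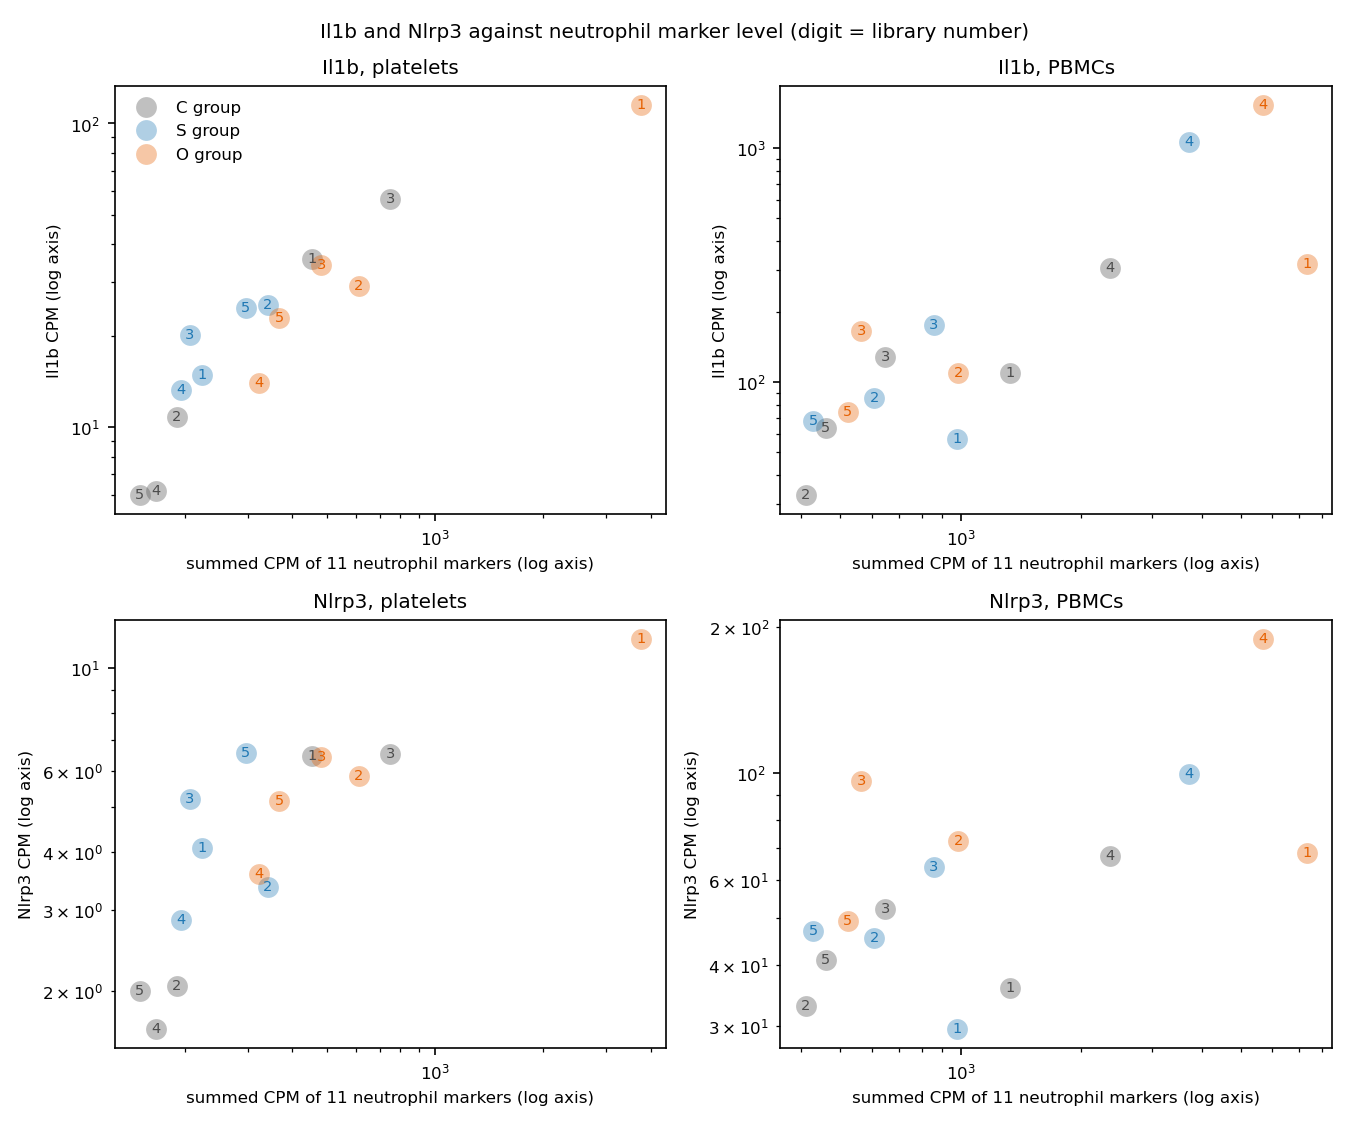
CPM of Il1b (top) and Nlrp3 (bottom) against the summed CPM of 11 neutrophil markers (both axes log scale) in the 15 platelet libraries (left) and the 15 PBMC libraries (right), coloured by group and numbered by library. The first O group platelet library (3756 CPM of markers, 115 CPM of Il1b) and PBMC libraries 4 of S and O group lie at the upper right.

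The difference of response between tissues was tested as an interaction over all 30 libraries. For S group against O group 1 member was called, where 13.6% of 16498 genes were called: Il18bp, whose fold change was lower in platelets than in PBMCs by 1.66 on the log2 scale (SE 0.78, P 0.041, edgeR adjusted P 0.342). It was -0.78 (P 0.29) without O group platelet library 1 and -1.14 (P 0.151) without O group platelet library 4, and the call was lost without any 1 of 10 other libraries as well (-1.62 to -1.43), with RLE size factors (-1.54, P 0.0639), with the replicate block (-0.76, P 0.28) and with hemoglobin genes removed (-1.43, P 0.076). In the last of these Il18r1 was called in its place, with a fold change higher in platelets (0.86, P 0.0396). None was called by edgeR or DESeq2 for S group against C group (5.38% of genes called by edgeR) or for O group against C group (6.59%). Nlrp3, called in O group PBMCs and not in O group platelets, was not called in this test (difference of log2 fold changes -0.19, SE 0.53, P 0.728).

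Of 55 further genes of the pathway, listed from the IL-1 family, the inflammasome and the signalling chain below the receptors, all were in the tables and 48 to 51 were tested, depending on the comparison. In platelets of S group against C group 2 of 48 were called (all genes 6.42%), both higher: Nfkbiz, an inducible co-regulator of NF-kappa B (8.76 ± 3.29 against 5.26 ± 2.48 CPM, log2 fold change 0.73, P 0.0367), and P2rx7, the ATP-gated channel upstream of NLRP3 (4.99 ± 2.69 against 2.84 ± 1.15 CPM, 0.82, P 0.0489). Each call was lost in 6 of 10 fits that left out 1 library (0.48 to 1.00 and 0.57 to 1.01). P2rx7 was also higher in S group than in O group (1.37, P 0.0112), where 8 of 49 were called (all genes 13.9%). Sigirr, an inhibitory receptor of the family, was higher there too (11.8 ± 3.33 against 7.08 ± 1.93 CPM, 0.71, P 0.0125), as was Gsdmd, which forms the pore that releases IL-1β (24.8 ± 3.82 against 18.9 ± 2.23 CPM, 0.38, P 0.0312), a call lost in 4 of 10 such fits (0.31 to 0.44). Nek7, a partner of NLRP3, was lower in S group than in O group with no overlap between libraries (45.6 ± 7.77 against 63.2 ± 2.91 CPM, -0.48, P 0.0123), a separation that 3.56% of genes had. Nlrp12 (-1.42, P 0.0122) and Casp4 (9.79 ± 2.21 against 19.8 ± 13.2 CPM, P 0.0153), the mouse caspase-11 gene, were also lower. Without O group library 1 these differences were -0.74 for Nlrp12 and -0.59 for Casp4, and both calls held. In O group against C group 2 of 48 were called (all genes 4.79%), Casp4 higher (0.87, P 0.0343) and Sigirr lower (-0.52, P 0.0334), and neither was called without O group libraries 1 and 4 (0.16, P 0.485, and -0.41, P 0.127).

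In PBMCs no further gene of the pathway was called in S group against C group by edgeR (0 of 49, smallest P 0.0851). In O group against C group 6 of 49 were called (all genes 11.9%), among them Irak3, a brake on IL-1 receptor signalling (39.9 ± 3.81 against 33.3 ± 2.89 CPM, log2 fold change 0.26, P 0.0123), the pyrin gene Mefv (66.1 ± 19.1 against 44.1 ± 11.1 CPM, 0.58, P 0.0191) and Casp4 (0.33, P 0.0224), which were higher, and Sigirr, which was lower (48.3 ± 5.12 against 60.4 ± 8.69 CPM, -0.32, P 0.0153). In S group against O group 5 of 48 were called (all genes 12.2%). Sigirr was higher in S group (0.33, P 0.028), and Mefv (-0.67, P 0.00934), Tab3 (-0.74, P 0.0356) and Naip2 (-0.28, P 0.04) were lower. When 1 library was left out, the call was lost in 3 of 10 fits for Sigirr (0.21 to 0.40), 4 for Tab3 (-0.87 to -0.29) and 6 for Naip2 (-0.38 to -0.20), and in O group against C group in 3 for Casp4 (0.23 to 0.39) and 1 for Mefv (0.41 to 0.72). None of the pathway genes passed an adjusted P under 0.05 within a tissue (edgeR, Benjamini-Hochberg). Between tissues 43 of 50 were called (all genes 82.3%), 31 lower and 12 higher in platelets. On the scale of all 30 libraries, the largest statistics among the higher genes belonged to Il33, the alarmin of the family (4.34 ± 2.04 CPM in platelets and 0.0153 ± 0.0318 in PBMCs), Ninj1, which ruptures membranes of dying cells (524 ± 219 against 44.9 ± 7.99 CPM), and Tollip, an adaptor of IL-1 receptor signalling (473 ± 199 against 63.2 ± 8.95 CPM). Among the lower genes they belonged to Nlrp1b (log2 difference -2.96, SE 0.16), Naip5 (-2.24, SE 0.13) and Ikbkb (-1.40, SE 0.08), and for all 6 the libraries of the tissues did not overlap.

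In the interaction tests 5 of 51 pathway genes were called for S group against O group (all genes 13.6%) and 3 of 51 for S group against C group (all genes 5.38%). P2rx7 and Ifng, the cytokine that IL-18 induces, had fold changes that were higher in platelets than in PBMCs for S group against O group, by 1.42 (P 0.00252) and 1.96 (P 0.0251) on the log2 scale. Serpinb1a (-0.63, P 0.00984), Casp4 (-0.85, P 0.0194) and Nek7 (-0.43, P 0.0263) had fold changes that were lower in platelets. For S group against C group P2rx7 (0.88, P 0.0443) and Ifng (1.63, P 0.0495) were again higher and Nek7 lower (-0.39, P 0.0418). In this last comparison the call was lost in 11 of 30 fits that left out 1 library for P2rx7 (0.66 to 1.18), 20 for Ifng (1.36 to 1.97) and 14 for Nek7 (-0.48 to -0.26). For S group against O group it was lost in 0 for P2rx7, 2 for Ifng (1.71 to 2.40), 3 for Casp4 (-0.996 to -0.26), 4 for Serpinb1a (-0.78 to -0.38) and 5 for Nek7 (-0.52 to -0.16). Calls also depended on the setting of the fit. Over the named differences of all comparisons, 7 calls were lost with the replicate block, 6 with RLE size factors and 6 with hemoglobin genes removed. The block also added 5 calls and reversed 1 difference. These counts cover members and pathway genes together. Ifng was near its limit of detection in platelets, at 0.718 ± 0.467 CPM in S group 0.183 ± 0.108 CPM in C group and 0.119 ± 0.0712 CPM in O group (SD, n = 5).

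The genes whose pattern was most like that of Il1b, Nlrp3 and Il18rap were sought by Pearson correlation of log2(CPM + 1) over the 15 libraries of a tissue, among 8477 or 8478 genes in platelets and 10505 in PBMCs with a mean of at least 5 CPM. In platelets Il1b was most like Mefv (0.957), Csf3r (0.946) and Fes (0.933), Nlrp3 most like Tgfbi (0.961), Rasgrp4 (0.955) and Card9 (0.944), and Il18rap most like Cd33 (0.938), Igsf6 (0.935) and Dmxl2 (0.919). In PBMCs Il1b was most like Acod1 (0.977), Hdc (0.974) and Lilr4b (0.961), Nlrp3 most like Osm (0.967), Trib1 (0.966) and Plk3 (0.959), and Il18rap most like Igtp (0.878), Ifit1 (0.867) and Rgs3 (0.858). Csf3r is 1 of the 11 neutrophil markers, and the other 17 genes named are on none of the marker lists. Between members, Il1b and Nlrp3 had correlations of 0.933 in platelets and 0.881 in PBMCs.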

How the data were processed

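Platelet and PBMC RNA from C, S and O group mice was sequenced as poly(A)-selected libraries, 5 per group and tissue. The authors aligned reads with HISAT2 2.0.5 and counted them per gene with featureCounts 1.5.0-p3, and the deposited values are raw counts, without normalization. They tested differences with DESeq2 1.16.1. The submitters' processing notes list the build mm9. The count tables hold no coordinates, and positions here are GRCm38, GENCODE M21, in which 54495 of 54532 identifiers were found. Tissue was taken from the titles, since platelet samples also carry the tag PBMC. For the platelet pools of S group the labels give 10 mice each and the methods differ.

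Groups were compared 2 at a time, in separate fits, with edgeR 4.0.16 (R 4.3.3) after filterByExpr and TMM normalization, with the two-sided quasi-likelihood F test. Standard errors were obtained from the log2 fold change and F. The P values rest on a dispersion estimated over all libraries of a fit and moderated across genes, and they refer to pools and not to animals. Tissues were compared in a fit of 30 libraries with a term for group, and interactions in a fit of all 6 groups. DESeq2, the tool of the study, was an alternative here (1.42.0), beside voom (limma 3.58.1), RLE size factors, all genes with at least 1 count, a joint fit of the 3 groups, the replicate number as a block, hemoglobin genes removed, and each library left out. The edgeR steps were tested on simulated data. Library numbers were checked for pairing by the correlation of same-numbered libraries' deviations from their group means: this was over 0.1 in all 5 pairs for PBMCs of S group and C group (0.268 to 0.561) and of S group and O group (0.111 to 0.392), and not in all pairs of the other comparisons.

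The 10 members, the pathway list and the marker lists were chosen with earlier results of these data known. Pathway genes were named by the 3 smallest P per comparison and direction among those called. Patterns of single libraries were named after their values were seen. Promoter windows are from RefSeq.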

Additional observations from a re-analysis of the deposited data

Results flagged for a closer look

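Among 60 groups of 5 libraries (10 genes, 2 tissues, 3 groups), 12 held a library whose gap to the nearest other exceeded Dixon's 95% limit of 0.71 of the range. Chance alone flags about 1 in 20 groups where values are normally distributed. The limit was applied to CPM and not to their logs, every flagged library was the highest of its group, and the genes share their libraries. The 12 flags are therefore not set against that rate. The first O group platelet library stood apart in 4 genes: Il1b (115 CPM, the others 14.0 to 34.1), Il1rn (7.52 CPM, the others 2.57 to 3.66), Il1rap (10.9 CPM, the others 1.07 to 1.58) and Il18rap (40.6 CPM, the others 12.6 to 18.1). The fourth S group PBMC library stood apart in 4 as well: Il1b (1062 CPM, the others 57.3 to 175), Il1rn (20.2 CPM, the others 4.09 to 6.88), Il1rap (40.5 CPM, the others 11.7 to 14.5) and Il18rap (139 CPM, the others 89.4 to 101). Il1b in the fourth O group PBMC library had 1521 CPM against 74.1 to 319 CPM. In platelets, Il18r1 stood apart in the first C group library (10.5 CPM, the others 3.37 to 5.29) and in the fifth S group library (18.4 CPM, the others 4.89 to 6.09), and Pycard in the third C group library (20.1 CPM, the others 10.4 to 11.98).

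The response of Il18bp in S group against O group differed between the tissues by -1.66 on the log2 scale in the interaction test (P 0.041, edgeR adjusted P 0.342), with the Il18bp level of the O group platelets carried by 2 of 5 libraries.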

How the results depend on the processing

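The number of the 10 members called was 0 in platelets of S group against C group and became 3 with voom. In platelets of S group against O group it was 2 and became 3 with DESeq2, 3 without the low count filter, 1 with voom, 1 with the replicate block and 3 without O group libraries 1 and 4. It stayed 2 with all 3 groups in one fit, but with another member lower in place of Il1b. In platelets of O group against C group it was 0 and became 1 with DESeq2, 2 without the low count filter, 4 with voom, 3 with the replicate block (Il1b 1.11, P 0.0134, Il1rn and Nlrp3 0.93, P 0.00603) and 2 with all 3 groups in one fit. In PBMCs of S group against C group it was 0 and became 1 with the replicate block. In PBMCs of S group against O group it was 0 and became 1 with DESeq2, 1 without the filter, 1 with voom, 1 with the replicate block and 1 without both libraries numbered 4. In PBMCs of O group against C group it was 3 and became 4 with DESeq2, 5 without the filter, 2 with voom, 4 with the replicate block, 2 with all 3 groups in one fit and 1 without both libraries numbered 4. For the interaction it was 1 for S group against O group and became 0 with RLE, 2 without the filter and 0 with the replicate block, and was 1 but Il18r1 instead of Il18bp with hemoglobin genes removed. For O group against C group 0 became 1 without the filter. Between tissues it was 7 with the replicate block too, but with Il18bp (-0.98, P 0.00213) instead of Casp1, and 6 in the other settings. The causes were not tested. With DESeq2, voom and the block the counts of all genes called were 2118, 2264 and 1545 in platelets of S group against O group, 776, 883 and 863 in platelets of O group against C group, 1936, 2151 and 2023 in PBMCs of S group against O group, and 2232, 2185 and 1801 (edgeR 1759) in PBMCs of O group against C group. In the last it was 2401 without the filter, 2114 in the joint fit and 1258 without the libraries numbered 4, and for PBMCs of S group against O group 2571 without the filter.

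When 1 library was left out the number of members called ran from 0 to 1 in platelets of S group against C group, 0 to 3 in platelets of S group against O group, 0 to 3 in platelets of O group against C group, 0 to 1 in PBMCs of S group against C group, 0 to 3 in PBMCs of S group against O group and 2 to 4 in PBMCs of O group against C group. It ran from 6 to 8 between tissues, and from 0 to 1, 0 to 2 and 0 to 2 for the interactions of S group against C group, S group against O group and O group against C group.

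Il1b in platelets of S group against C group was -0.24 and became 0.94 with voom (P 0.0237), 0.30 with the replicate block and 0.42 at the top of its range when 1 library was left out (-0.48 to 0.42). Il1b in PBMCs ran from -0.40 to 1.80 in S group against C group and from -2.17 to 0.79 in S group against O group when 1 library was left out, and Casp1 between tissues from -0.20 to 0.00043 (without O group platelet library 5). Il18bp in platelets became -0.12 with voom in O group against C group, and -0.96 in O group against C group and 1.09 in S group against O group without O group libraries 1 and 4, a setting chosen after seeing the data, as was that without the libraries numbered 4. In the interaction tests RLE moved the members and named pathway genes by a median of 0.138 and -0.117, and removal of the hemoglobin genes by 0.195 and -0.178, on the log2 scale, for S group against O group and O group against C group.

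The correlation was over 0.1 in all 5 pairs only for PBMCs of S group with C group and with O group. No label pairs libraries by number. The other comparisons did not reach this limit in all pairs, though 4 of 5 pairs correlated best with their own number for platelets of O group and C group. The correlation ran up to 0.616 between the tissues of O group, and PBMCs of O group and C group each reached the limit with S group. In those other comparisons the block changed the calls given here and that of Il1b in PBMCs of O group against C group (1.24, P 0.00749). Low counts limit Il18, Il1rap and Il18bp in platelets, with as few as 2, 8 and 6 counts in a library. The number of all genes called rose over 1.5 times without the filter, in platelets from 852 to 2097 (S group against C group), 1849 to 3131 (S group against O group) and 635 to 1547 (O group against C group), in PBMCs of S group against C group from 400 to 1512, between tissues from 11808 to 19936, and in the interactions from 887 to 2156 (S group against C group) and 1088 to 1875 (O group against C group). With voom it was 2081 for platelets and 633 for PBMCs of S group against C group, with the replicate block 651 for the latter, with the joint fit 954 for platelets of O group against C group, and without the libraries numbered 4 it was 1122, against 1796, for PBMCs of S group against O group. Leaving out 1 library moved it from 635 to 1072 (O group library 2) in platelets of O group against C group, from 400 to 603 (C group library 3) in PBMCs of S group against C group, and from 887 to 1652 (platelet C group library 1) in the interaction of S group against C group.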
